A study of Mus musculus with 8 samples.

Results

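A group of 9 genes of the red blood cell lineage was followed through RNA-seq of whole mouse brain. They were taken by symbol from the deposited count table, which lists 34299 genes. Hba-a1, Hba-a2, Hbb-bs and Hbb-bt encode the adult alpha and beta globins. Hba-x, Hbb-y and Hbb-bh1 encode the embryonic zeta-like, epsilon-like and early beta-like globins. Alas2 encodes the erythroid form of the first enzyme of haem synthesis, and Slc4a1 the band 3 anion exchanger of the red cell membrane.

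Haemoglobin is a tetramer of alpha-type and beta-type globin chains, each of which holds a haem group. In the mouse, primitive red cells made in the yolk sac carry embryonic globins, and the definitive red cells that the fetal liver releases around midgestation carry adult globins, so that circulating blood passes from embryonic to adult chains during fetal life. Red cells lose their ribosomes and RNA as they mature, and the globin mRNA that reaches a brain library comes largely from reticulocytes and nucleated red cells in its vessels, although low globin expression has also been described in neurons and glia.

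Of 8 whole-brain libraries, 6 were fetal (gestation day 15), 3 from WT (wild-type) and 3 from Cav1 KO (knockout) mice. The other 2 were of KO mice aged 70 weeks, called week 70 here. Cav1 encodes caveolin 1, the main coat protein of caveolae, which are abundant in the endothelium of many organs. The strain and the knockout allele are not given in the sources used here, and the deletion is shared by all 5 KO libraries. WT brain at week 70 was not analysed here, so age was compared within the KO only, against the same 3 KO day 15 libraries that enter the comparison of genotypes. The protocol calls the fetal replicates biological. It does not say whether they shared a litter, and nothing says whether vessels were cleared of blood, so any blood left in the tissue would be part of these values. In RNA of a whole organ, fewer red cells and less RNA per red cell cannot be told apart.

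Total counts ranged from 19414747 to 20833397 in WT fetuses and from 14110031 to 15245283 in KO fetuses. Week 70 brains gave 20203233 and 18924304. Depth separated the fetal genotypes, and no batch or date is recorded. The targeted gene went with the labels: WT fetuses had 367, 218 and 329 counts of Cav1, KO fetuses 0, 3 and 1, and week 70 brains 1 and 5. Genes of neurons and neural progenitors on a list of 12 brain markers summed to 6315 to 6915 CPM (counts scaled to a common library total) in WT day 15, 6545 to 6676 in KO day 15 and 5110.5 to 5286 at week 70. Like sums in the fetal genotypes do not mean like content. By the test used below, 6 of these 12 genes were lower in KO day 15 and 3 higher, against 32.5% and 30.1% of all genes. Some libraries stood apart in RNA of other tissues. WT replicate 1 held 49885 counts of Col1a1, a collagen of connective tissue, against 1408 and 2623 in the other WT libraries. For Alb, the serum albumin of liver, the counts were 0, 0 and 25 in WT fetuses, 90, 0 and 101 in KO fetuses, and 163 and 2 in week 70 brains. Week 70 replicate 2 held 4 counts of Xist and 1137 of the Y-linked Ddx3y, whereas the other 7 libraries held at least 7969 of Xist and at most 3 of Ddx3y.

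Copies of the adult globins are hard to separate by reads. The coding sequences of Hba-a1 and Hba-a2 differed at 1 of 429 aligned bases in the GENCODE annotation of GRCm38, and those of Hbb-bs and Hbb-bt at 1 of 444. Of all 100-base windows, 43.5% were unique to Hba-a1, 25.5% to Hba-a2, 37.4% to Hbb-bs and 45.2% to Hbb-bt. All 100-base windows of the other 5 members were unique, so their reads could be assigned with less doubt. How reads that match several genes were counted is not given in the sources used here, and the division between adult copies is uncertain. Their sum is less so, provided that shared reads were counted. The 3 alpha-type genes lie on the plus strand of chromosome 11, Hba-x at 32276400 to 32278116, Hba-a1 at 32283511 to 32284465 and Hba-a2 at 32296489 to 32297298. On the minus strand of chromosome 7 stand Hbb-bt at 103812524 to 103813996, Hbb-bs at 103826534 to 103828096, Hbb-bh1 at 103841637 to 103843164 and Hbb-y at 103851749 to 103853216. All 7 globin genes have 3 exons. Alas2 is on chromosome X at 150547375 to 150570638 with 11 exons, and Slc4a1 on chromosome 11 at 102348824 to 102366203, on the minus strand, with 20 exons.

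The 120 bases before the RefSeq start site (GRCm38.p6) are shown for 2 genes that rose and 1 that fell in the beta cluster, and for 1 of each in the alpha cluster, since neighbouring genes of a cluster moved in opposite directions between the genotypes. Capitals mark CACCC (the core of the element bound by KLF1 and related factors), CCAAT, and the TATA-like words TATAAA, its variant ending in G (TATAAG) and the shifted form ATAAAA, on either strand. In Hbb-bt, a pair of CCAAT words on opposite strands forms the longest capital run.

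Hbb-bs (chr7:103827929-103828048, minus strand): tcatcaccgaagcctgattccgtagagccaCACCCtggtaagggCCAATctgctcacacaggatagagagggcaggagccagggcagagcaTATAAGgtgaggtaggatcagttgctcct
Hbb-bt (chr7:103813924-103814043, minus strand): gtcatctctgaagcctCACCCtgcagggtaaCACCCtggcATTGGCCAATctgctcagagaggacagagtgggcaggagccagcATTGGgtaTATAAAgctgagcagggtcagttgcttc
Hbb-y (chr7:103853208-103853327, minus strand): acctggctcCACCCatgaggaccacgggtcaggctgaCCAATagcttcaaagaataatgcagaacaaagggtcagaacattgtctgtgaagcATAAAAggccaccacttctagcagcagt
Hba-a1 (chr11:32283552-32283671, plus strand): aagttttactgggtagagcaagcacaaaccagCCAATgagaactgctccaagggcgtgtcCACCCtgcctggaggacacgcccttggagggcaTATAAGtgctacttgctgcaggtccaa
Hba-x (chr11:32276480-32276599, plus strand): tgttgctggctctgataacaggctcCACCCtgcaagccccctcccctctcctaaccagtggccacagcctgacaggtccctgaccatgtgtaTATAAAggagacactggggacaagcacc

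The RefSeq table held this window for 7 of the 9 members, and Hbb-bh1 and Slc4a1 are named only. CACCC was found in 7 of the 7 windows, against 31.7% of the 32851 windows of that length in the table. A TATA-like word also stood in 7 of 7, against 14.3%, and CCAAT in 5 of 7, against 21.3%, its absences being Hba-x and Alas2. GATAAG, a form of the GATA word bound by GATA1, was in 0 of 7, against 3.01%. Other forms were not sought, and the Hba-x window holds tgataa, so the absence is of this form only. In the direction of transcription the TATA-like words began between 27 and 30 bases before the start in the 6 globin windows. The word counted in Alas2, ATAAAA, was on the opposite strand and 88 bases before the start, away from the place of the globin ones. These words did not divide the genes that rose from those that fell: Hbb-bs and Hbb-y both held CACCC and also CCAAT and a TATA-like word, at 90, 76 and 29 bases before the start in Hbb-bs and at 111, 83 and 28 in Hbb-y. Identity over the aligned windows was 95.1% between Hba-a1 and Hba-a2, 74.6% between Hbb-bs and Hbb-bt, and 50% between Hbb-bs and Hbb-y.

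At day 15 the adult globins and 2 of the 3 embryonic ones moved in opposite directions. All 4 adult globins and Alas2 rose in KO, by 2.2-fold to 5.44-fold. The embryonic globins Hbb-y and Hba-x fell, by 1.94-fold and 1.75-fold, and Hbb-bh1 and Slc4a1 did not pass the test. Thus 7 of 9 members were called by edgeR's quasi-likelihood test at an adjusted p under 0.05, where 62.6% of all 19147 genes tested were called. By direction, 5 members were called higher, against 30.1% of all genes, and 2 lower, against 32.5%. With so large a share of all genes called, the count of members says little, and their sizes and directions are given below. With upper-quartile in place of TMM scaling the median of all genes moved from 0.03 to 0.20 on the log2 scale and the higher share of all calls from 48.1% to 60.8%, and the 7 members kept their directions and calls.

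Levels below are CPM of all counts in a library. In WT fetuses Hba-a1 stood at 369, 373 and 329 CPM (replicates 1 to 3), in KO fetuses at 783, 957 and 891 CPM, and in week 70 brains at 114 and 217 CPM. Every KO day 15 library was above every WT library, and both week 70 libraries were below them all. Between the genotypes edgeR gave a difference of 1.14 on the log2 scale, with an SE of 0.0847 and an adjusted p of 1.05e-06. Hba-a2, its near-identical copy, stood at 308, 135 and 275 CPM in WT fetuses, 659, 788 and 697 CPM in KO fetuses, and 42.7 and 37.2 CPM in week 70 brains. WT replicate 2 was low for this copy although it was the highest WT library for Hba-a1. Hba-a2 differed by 1.42 on the log2 scale (edgeR, SE 0.229 and adjusted p 3.06e-04).

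The adult beta globins differed more. Hbb-bs was at 427, 329 and 400.1 CPM in the WT fetuses, 2082, 2574 and 2362 CPM in the KO fetuses, and 179 and 301 CPM at week 70. The lowest KO fetal library thus held several times the highest WT one. On the log2 scale Hbb-bs differed by 2.44, with an SE of 0.103 and an edgeR adjusted p of 2.96e-08, which ranked 85 from the highest of 19147 tested genes by size. Levels of Hbb-bt were 138, 117 and 117 CPM in WT fetuses, 592, 779 and 613 CPM in KO fetuses, and 22.2 and 26.4 CPM at week 70, again with no overlap between any of the 3 groups. The log2 difference of Hbb-bt was 2.26, with an SE of 0.109 and an adjusted p of 5.99e-08 in edgeR. All 4 adult globins were called higher with a log2 fold change of at least 1, which 8.53% of all genes were.

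**Figure D1:**
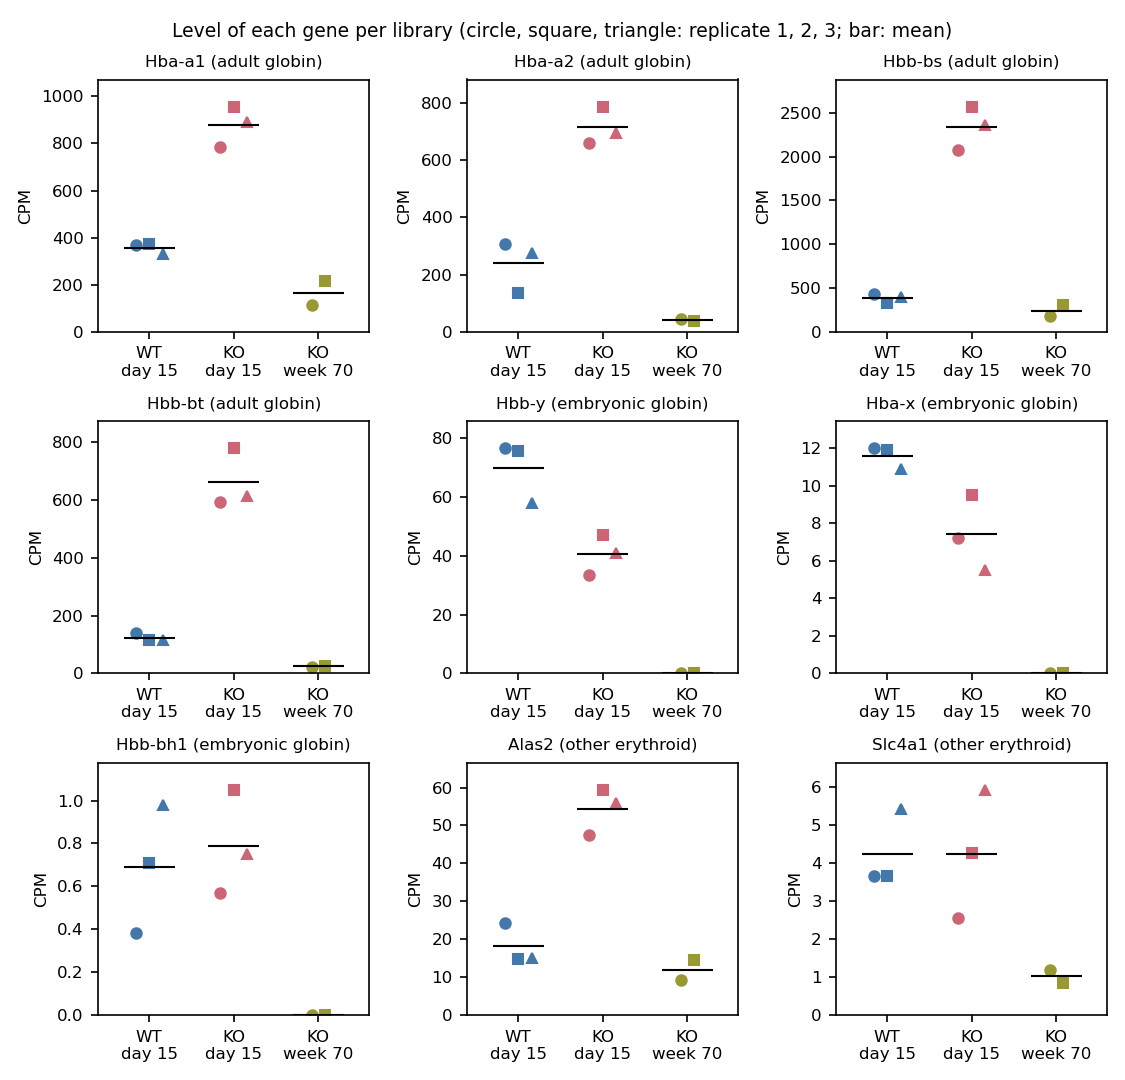
CPM of each of the 9 genes (vertical axis, linear, from 0, scaled per gene) in the 3 groups, with circles, squares and triangles for replicates 1, 2 and 3 and a bar at the group mean. The adult globins and Alas2 are highest in KO day 15, Hbb-y and Hba-x fall from WT to KO day 15 and again to week 70, and Hbb-bh1 and Slc4a1 overlap between the fetal genotypes.

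Among the embryonic globins, Hbb-y was the most abundant per length in every group where they were detected. Its levels were 76.6, 75.5 and 57.9 CPM in WT fetuses and 33.4, 47 and 40.9 CPM in KO fetuses. At week 70 they were 0.099 and 0.0528 CPM, from 2 and 1 counts. The lowest WT library lay above the highest KO library. This is a log2 difference of -0.95 with an SE of 0.132 (edgeR adjusted p 1.06e-04). Hba-x, the embryonic alpha-type chain, was at 12, 11.9 and 10.9 CPM in WT fetuses and 7.23, 9.51 and 5.52 CPM in KO fetuses, with 0 counts in both week 70 libraries. These fetal values also did not overlap, and the log2 difference was -0.81 with an SE of 0.179 (edgeR adjusted p 0.00265). An alternative added after seeing the data left out the 3 fetal libraries with more than 10 counts of Alb. It set 2 WT libraries against 1 KO library, replicate 2, which was assumed to vary like the WT, so its calls say little. Hba-x was then at -0.51 (edgeR adjusted p 0.0891).

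Hbb-bh1, the third embryonic gene, was near the limit of detection. WT fetuses held 8, 14 and 19 counts of it, KO fetuses 8, 16 and 11, and both week 70 brains 0. The fetal groups overlapped, and the log2 fold change of 0.04 had an SE of 0.426 (edgeR adjusted p 0.936), and its sign changed with the setting. A change of the size seen for Hba-x was not detectable at this depth.

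In the 6 fetal libraries the CPM of 7 members did not overlap between genotypes, as for 70.6% of all genes tested. By direction these were 5 higher, against 42.6% of all genes, and 2 lower, against 28%. KO replicate 2 was the highest KO fetal library for 8 of 9 members, Slc4a1 being highest in KO replicate 3. WT replicate 1 was the highest WT library for 6 of 9.

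Transcript length and GC content went along with the genotype difference over all genes, and a fit that removed both trends was run beside the first. The corrected log2 fold changes were 0.99 for Hba-a1, 1.23 for Hba-a2, 1.96 for Hbb-bs, 1.77 for Hbb-bt and 1.59 for Alas2. Those of the embryonic genes were -1.59 for Hbb-y and -0.98 for Hba-x. The same 7 members were called, against 50.2% of all genes, 5 higher against 25.7% and 2 lower against 24.5%. Hbb-bh1 moved to -0.73 and Slc4a1 to 0.57, neither called by edgeR (adjusted p 0.175 and 0.139).

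**Figure D2:**
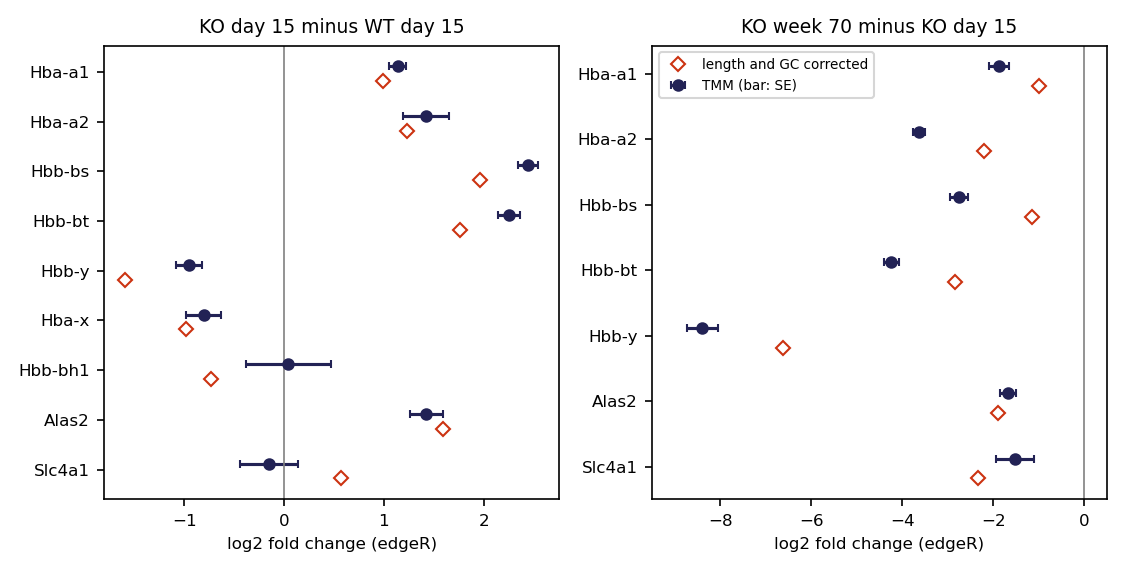
edgeR log2 fold changes of the members (horizontal axis), KO day 15 minus WT day 15 on the left and KO week 70 minus KO day 15 on the right. Filled circles with SE bars are the TMM fit and open diamonds the length and GC corrected fit. Hba-x and Hbb-bh1 are left out on the right, since both week 70 libraries held 0 counts. On the left the 4 adult globins and Alas2 lie above 0 in both fits and Hbb-y and Hba-x below 0, and on the right all 7 genes drawn lie below 0.

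Summed over the 4 genes, adult globins took 0.124%, 0.0953% and 0.112% of all counts in WT day 15, which is 0.11 ± 0.0144% (SD, n = 3). In KO day 15 they took 0.412%, 0.51% and 0.456%, or 0.459 ± 0.0491% (SD, n = 3), so that about 1 read in 219 came from these genes, against 1 in 915 in WT. At week 70 the shares were 0.0359% and 0.0581%. The 3 embryonic genes took 0.0089%, 0.00881% and 0.00698% in WT day 15 and 0.00412%, 0.00575% and 0.00471% in KO day 15. At week 70 they were down to 2 counts in replicate 1 and 1 count in replicate 2. The sums for the adult genes do not depend on how reads were divided between near-identical copies, as long as shared reads were counted.

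**Figure D3:**
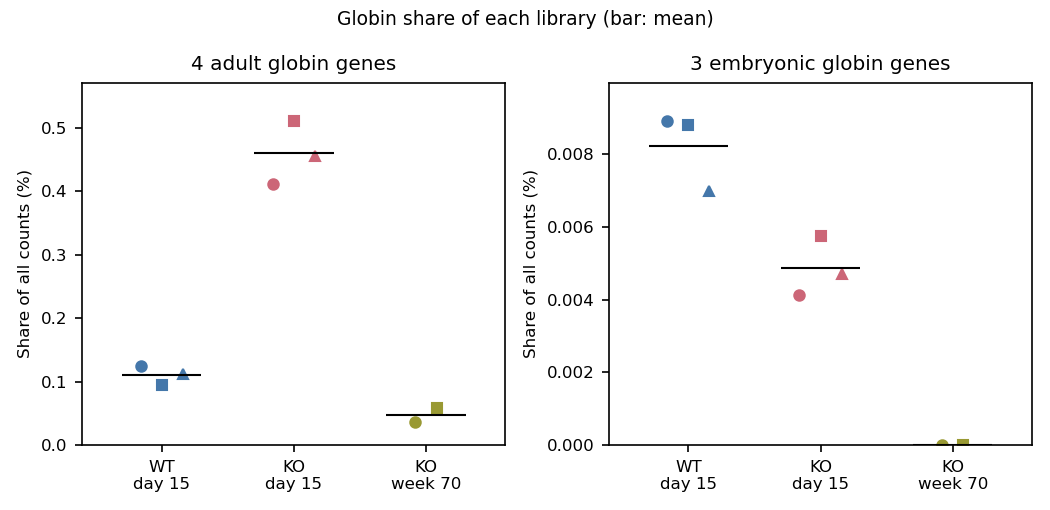
Share of all counts in a library (percent, linear axis from 0) that came from the 4 adult globin genes, left, and the 3 embryonic globin genes, right. Points are libraries (circle, square, triangle: replicates 1, 2, 3) and bars are means. The adult share is highest in KO day 15 (0.412 to 0.51%), and the embryonic share is highest in WT day 15 (0.00698 to 0.0089%).

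Ratios of counts within a library do not depend on its depth. The embryonic genes Hbb-y and Hbb-bh1 made up 12% of beta-type globin counts in WT replicate 1 (exact binomial 95% interval 11.4 to 12.6%), 14.6% in replicate 2 (13.9 to 15.3%) and 10.2% in replicate 3 (9.67 to 10.8%). In KO day 15 the shares were 1.25% (1.14 to 1.37%), 1.41% (1.31 to 1.52%) and 1.38% (1.27 to 1.49%). The group means were 12.3 ± 2.21% and 1.35 ± 0.085% (SD, n = 3 each), a gap far wider than the spread between libraries of a group. At week 70 the shares were 0.0491% (0.00595 to 0.177%) and 0.0161% (0.000409 to 0.0899%). These intervals cover counting error only. If reads shared between adult copies were not counted, the adult sums are too low and these embryonic shares too high.

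For the alpha-type chains the embryonic Hba-x made up 1.74%, 2.3% and 1.78% of counts in WT day 15 and 0.499%, 0.542% and 0.346% in KO day 15. The means were 1.94 ± 0.312% and 0.462 ± 0.103% (SD, n = 3 each), again with no overlap. Week 70 held 0 Hba-x counts of 3173 and of 4802 alpha-type counts, which allows a share of up to 0.0945% and 0.0625% at a floor of 3 counts (upper exact 95% limits 0.116% and 0.0768%). The embryonic share was thus lower in KO than in WT for both types of chain at the same labelled age. No test is given for these ratios, because they are sums over chosen genes. The alpha-type shares, too, are too high if reads shared between adult copies were not counted.

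**Figure D4:**
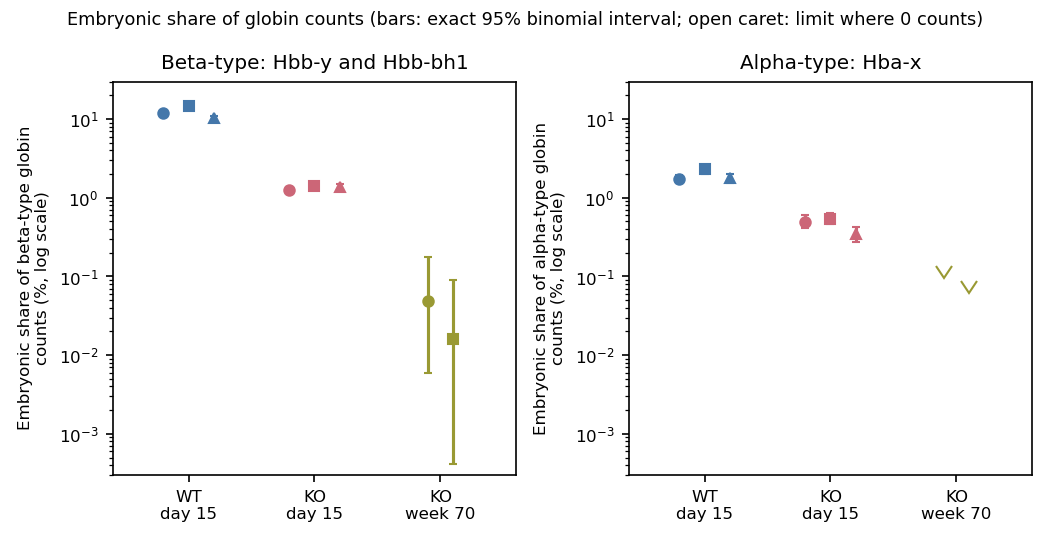
Embryonic share of beta-type (left) and alpha-type (right) globin counts per library, in percent on a log axis. Points are libraries, bars exact 95% binomial intervals, and open carets the share that 3 counts would make up where 0 were found. WT day 15 lies between 10.2 and 14.6% for beta-type and 1.74 and 2.3% for alpha-type, and KO day 15 between 1.25 and 1.41% and between 0.346 and 0.542%.

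The balance between adult beta and alpha chains also differed. The ratio of summed Hbb-bs and Hbb-bt counts to summed Hba-a1 and Hba-a2 counts was 0.834, 0.879 and 0.857 in WT fetuses, 1.86, 1.92 and 1.87 in KO fetuses, and 1.28 and 1.29 at week 70. The 3 groups did not overlap, and within each the libraries lay close together. If reads shared between copies were not counted, the adult sums are too low by unequal parts, and the level of this ratio is uncertain. Divided by transcript length the mean was 0.843 ± 0.0417 for WT fetuses and 1.83 ± 0.03 for KO fetuses (SD, n = 3 each). The transcripts differ in base composition, with 57.2% and 56.9% GC for the alpha genes and 51.3% and 50.8% for the beta genes. Once length and GC were corrected, the genotype difference on the log2 scale was 0.99 and 1.23 for the alpha genes and 1.96 and 1.77 for the beta genes, the same order at a smaller distance.

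Between copies, Hbb-bs counts were 3.09, 2.81 and 3.42 times those of Hbb-bt in WT day 15 and 3.52, 3.3 and 3.85 times in KO day 15, ranges that overlap. At week 70 the ratios were 8.09 and 11.4, above all fetal libraries. Hba-a1 counts were 1.2, 2.77 and 1.2 times those of Hba-a2 in WT fetuses, 1.19, 1.21 and 1.28 times in KO fetuses, and 2.68 and 5.82 times at week 70. WT replicate 2 stood apart from the other 5 fetal libraries in this ratio. Most windows of these copies are shared, and the part that the assignment of reads has in these ratios was not tested.

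**Figure D5:**
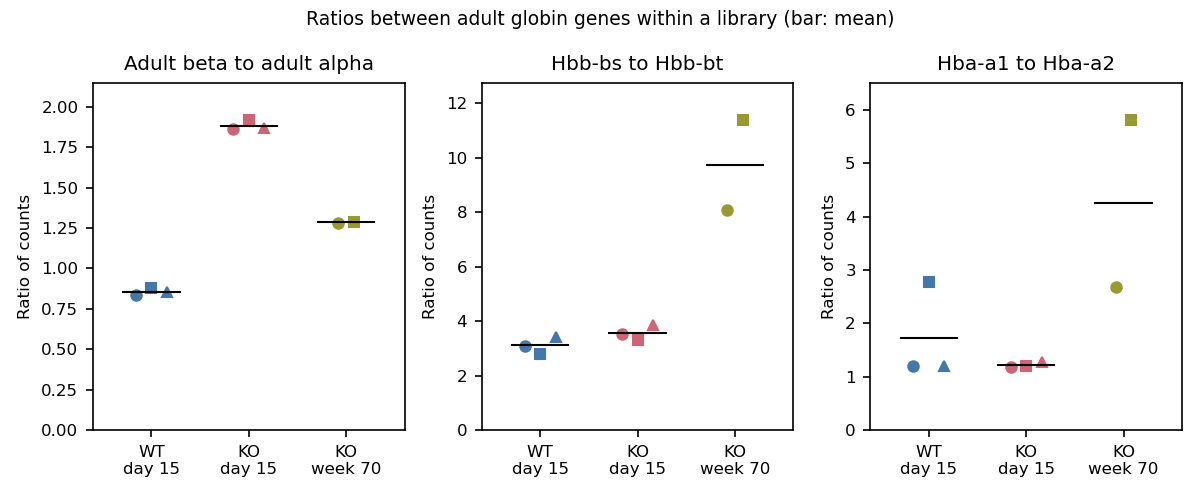
Ratios of counts within each library (linear axes from 0): adult beta to adult alpha globin, Hbb-bs to Hbb-bt, and Hba-a1 to Hba-a2, by group, with bars at the means. The beta to alpha ratio separates the 3 groups (0.834 to 0.879, 1.86 to 1.92 and 1.28 to 1.29), whereas the fetal groups overlap in the ratios between copies.

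Per kilobase of transcript, Hbb-bs was the most abundant member in each group, with means of 613, 3725 and 382 CPM per kilobase in WT day 15, KO day 15 and week 70. In WT day 15, Hba-a1 (511) and Hba-a2 (432) followed, Hba-a1 overlapping both Hbb-bs and Hba-a2, and then Hbb-bt (176), Hbb-y (111), Hba-x (14.5) and Alas2 (8.89), each apart from the next. Hbb-bh1 (1.13) and Slc4a1 (0.932) came last and overlapped. In KO day 15, Hba-a2 (1289.8) and Hba-a1 (1254) overlapped behind Hbb-bs, Hbb-bt was at 941, and Alas2 (26.6) stood above Hba-x (9.26), the reverse of their order in WT. At week 70 Hbb-bs and Hba-a1 overlapped, and Alas2 (5.78) and Slc4a1 (0.224) stood above Hbb-y (0.12). The adult values in this order are too low if reads shared between copies were not counted.

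Alas2 rose with the adult globins. Its level was 24.3, 14.9 and 15.1 CPM in WT fetuses, 47.6, 59.4 and 55.8 CPM in KO fetuses, and 9.11 and 14.4 CPM at week 70. The fetal groups did not overlap, and WT replicate 1 was the highest of its group. The log2 difference was 1.42 with an SE of 0.165 (edgeR adjusted p 2.83e-05). Alas2 is X-linked, and all 6 fetal libraries had high Xist counts. Per 1000 summed adult globin counts, Alas2 had 19.6, 15.6 and 13.5 in WT fetuses and 11.6, 11.7 and 12.2 in KO fetuses. Week 70 brains had 25.4 and 24.8. Hbb-bs gave the most counts to this sum. The log2 difference of Alas2 at day 15 was above that of Hba-a1 (1.14), equal to that of Hba-a2 (1.42) and below both beta genes. With length and GC corrected it was 1.59, above the alpha genes (0.99 and 1.23) and below the beta genes (1.96 and 1.77).

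Slc4a1 did not pass the test at day 15. WT fetuses held 76, 72 and 105 counts of it and KO fetuses 36, 65 and 87, which is 4.24 ± 1.02 and 4.25 ± 1.69 CPM (SD, n = 3 each), and 24 and 16 counts at week 70. The fetal groups overlapped, and edgeR gave a log2 fold change of -0.15 (SE 0.293, adjusted p 0.668) whose sign changed with the setting. Per 1000 adult globin counts Slc4a1 was below the WT range in every KO fetal library, at 0.62, 0.836 and 1.3 against 2.94, 3.83 and 4.83. At week 70 it was at 3.31 and 1.46. Before correction, the counts of Slc4a1 thus did not keep pace with those of the adult globins in KO fetuses. With length and GC corrected, its log2 difference was 0.57 (edgeR adjusted p 0.139). Those of the adult globins were then 0.99 to 1.96, a smaller gap, which was not tested.

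Other genes of red cell formation were taken from 4 lists, of which 65 of 67 genes were in the table and 54 were tested at day 15. Of these 54, 11 (20.4%) rose and 21 (38.9%) fell, against 30.1% and 32.5% of all genes, with a median log2 fold change of -0.14 beside 0.03 over all genes. The sign of this median was not stable. After the length and GC correction it was 0.09, with 19 genes higher and 15 lower, and with upper-quartile scaling it was 0.04, beside 0.20 over all genes, with 16 higher and 17 lower. Without the 3 fetal libraries with Alb, which leaves 1 KO library, 5 genes were called higher and 17 lower, where calls over all genes fell from 11993 of 19147 to 7498 of 20657. Many of these genes serve other cells of the brain too, among them the spectrin and ankyrin genes and Bcl11a and Sox6, which neurons or glia use, so that the lists do not read red cells alone.

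Of 14 tested genes on the list of the red cell membrane and cytoskeleton 7 fell, with a median of -0.42 (0.03 corrected, where 4 rose and 5 fell). The spectrin gene Sptb changed by -1.69, the adducin gene Add2 by -0.72 and the protein 4.1 gene Epb41 by -0.48. After correction Sptb was at -0.63 and Add2 at 0.08. Sptb had 4999 and 4565 counts at week 70, against 200 to 260 in KO day 15.

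On the list of maturation, iron and enzyme genes 9 of 18 rose and 3 fell, with a median log2 fold change of 0.41 (0.37 corrected). Tfrc, the transferrin receptor that brings iron into erythroblasts and other cells, changed by 0.73, from 1544 to 1733 counts in WT and 2054 to 2313 in KO, at a lower depth in KO (edgeR adjusted p 1.5e-06). Bpgm, which makes the 2,3-bisphosphoglycerate that lowers the oxygen affinity of haemoglobin, changed by 0.65. Fbxo7 changed by -0.75. Of the less abundant genes, chosen after their values were seen, the erythroid genes Tspo2 and Trim10 rose, with log2 fold changes of 1.61 and 1.05 (edgeR adjusted p 0.0314 and 0.0423), calls that held in 12 and 9 of 18 fits. The values for Tspo2 rested on 1, 13 and 23 counts in WT fetuses and 28, 38 and 29 in KO fetuses. Other genes of low counts on this list did not rise. Steap3 fell by 1.44 (edgeR adjusted p 0.00399), and was at -0.75 and not called after correction. Epor was at -0.23 (edgeR adjusted p 0.652).

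Haem synthesis genes other than Alas2 did not rise as a list: 1 of 13 rose and 5 fell, with a median of -0.15 (-0.04 corrected, 0.02 with upper-quartile scaling). The gene that rose was Uros, by 0.46. Alas1, the form of the first enzyme that most tissues use, fell by 0.71, whereas its erythroid counterpart Alas2 rose. Abcb10 and Alad were at -0.51 and -0.46. After correction 3 rose and 5 fell, and Abcb10 was at 0.10.

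Of 9 tested erythroid transcription factor genes 0 rose and 6 fell, with a median of -0.60 (-0.01 corrected, where 2 rose and 4 fell). The log2 differences were -2.40 for Zfpm1, the cofactor of GATA1, -0.83 for Tal1, -0.79 for Sox6 and -0.60 for Bcl11a, and after correction -1.40, -0.29, -0.38 and -0.40. Bcl11a and Sox6 are repressors of embryonic beta-type globins in red cells, and are also expressed in neurons. The factors most restricted to the lineage, Gata1, Klf1, Nfe2 and Gfi1b, had between 0 and 17 counts in every library and were not tested at day 15. The same held for Epb42, Rhag, Trim58, Hemgn and Car1, so that the data give no direction for these genes.

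Of the globin genes outside the members, 3 were tested, and 0 of them were called higher before correction. Cygb, for cytoglobin, had an edgeR log2 fold change of -0.55 (adjusted p 0.00205) that was -0.05 after correction, and Ngb, for neuroglobin, one of 0.57 (adjusted p 0.0601). After correction Ngb was at 0.81 and called higher (edgeR adjusted p 0.0165), as it was in 3 of 18 fits, and its CPM did not overlap between the genotypes. Adgb was at 0.69 (edgeR adjusted p 0.161). Hbq1a, Hbq1b and Mb had at most 16 counts in any library, Hbb-bh2 and Hbb-bh0 at most 1, and none of these was tested. The 6 genes next to the alpha cluster held 2 that rose, 2 that fell and 2 not called, near the shares of all genes (30.1% higher, 32.5% lower). Snrnp25 changed by 0.65, Luc7l by 0.16, Rhbdf1 by -0.45 and Fam234a by -0.91. Rhbdf1 was at 0.24 after correction, and the small change of Luc7l was called in 9 of 18 fits. The largest rise among them, 0.65, was below the 1.14 and 1.42 of the adult alpha genes.

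Genes of haem breakdown and iron storage moved in both directions, with 3 of 10 called higher and 3 lower. These counts are near the shares of all genes, 30.1% higher and 32.5% lower. Hmox1, for the haem oxygenase that haem induces, fell by 1.37 in KO, from 126 to 148 counts in WT to 32 to 50 in KO (edgeR adjusted p 9.68e-05). The ferritin genes Fth1 and Ftl1 rose by 0.76 and 0.78. Lrp1, whose product takes up haem bound to hemopexin and many other ligands, fell by 1.71, and its corrected value was -0.71.

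Markers of other blood and vessel cells were read beside the globins. By the same test 30.1% of all genes were higher and 32.5% lower. Endothelial genes fell, 9 of 10, with a median of -1.34 (-0.98 corrected) and summed levels of 225 to 316 CPM in WT and 88.8 to 111 CPM in KO day 15, so that endothelial and adult globin RNA moved in opposite directions. Cdh5 changed by -3.07 and Kdr by -2.13. Of 7 tested progenitor genes 0 rose and 4 fell, with log2 differences of -1.17 for Kit and -1.5 for Gata2 (-0.77 and -0.79 corrected). Of 4 tested platelet genes Pf4 rose by 1.5 and Itgb3 fell by 1.61 (0.92 and -0.92 corrected). Of the leukocyte genes 4 were tested, and Lyz2 and Ptprc rose by 0.99 and 0.84 while Laptm5 fell by 1.74. The defining genes Ppbp, Gp9, Cd3e, Elane and Mpo had at most 5 counts in any fetal library. The liver list, summed, was at 312 to 410.4 CPM in WT and 364 to 449.7 CPM in KO day 15, most of it from Ttr, which the choroid plexus makes. The part of these cells in the globin values was not tested.

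Genes whose levels over all 8 libraries were most like a member's were sought among 12810 candidates by the root mean square difference in centred log2 CPM. Closest to the summed adult globins were Mlf1 (0.294), Nts (0.352), Amy1 (0.375), Ndufb4c (0.377) and Cdr1os (0.382). Mlf1 gave 75, 76 and 74 counts in WT fetuses, 142, 175 and 177 in KO fetuses, and 14 and 28 in week 70 brains. Alas2 was at 0.46 by the same measure. Closest to Hbb-y were Sox11 (0.201), Top2a (0.226), Mex3a (0.263), Aspm (0.296) and Igf2bp1 (0.301), while Hba-x was at 0.998, its 0 counts at week 70 having been raised by the pseudocount of 0.5 CPM. Sox11 was at means of 1571, 794 and 9.65 CPM in the 3 groups. These are descriptions over 8 libraries that fall into 3 groups.

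From day 15 to week 70 within the KO all 9 members fell. edgeR called 9 of 9, where 82% of 20000 tested genes were called, and all 9 were lower, as were 44.4% of all genes. CPM did not overlap for 9 of 9, against 88.6% of all genes, or 59.1% when only lower ones are counted. The KO day 15 libraries serve as the reference here as well as in the comparison of genotypes, so a high value in them enters both. With length and GC corrected 9 of 9 were called, against 78.7% of all genes, all lower, against 39%.

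The adult globins fell less than the embryonic ones but unequally among themselves. The edgeR log2 fold changes were -1.88 for Hba-a1 (SE 0.222, adjusted p 1.79e-05), -3.63 for Hba-a2, -2.76 for Hbb-bs (SE 0.204, adjusted p 4.19e-07) and -4.24 for Hbb-bt. Corrected for length and GC they were -1.00, -2.20, -1.15 and -2.84, and their order stayed the same. The median over all genes was -0.19 in the first fit and -0.03 in the corrected one. The copies with the lower counts, Hba-a2 and Hbb-bt, thus had the larger falls, beside the uncertain division of reads between copies.

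Embryonic globin RNA was all but undetected at week 70. Hbb-y had 1787 counts over the 3 KO day 15 libraries and 3 over both week 70 libraries, a level 529-fold lower in plain CPM (95% counting interval 181 to 2569, for counting error only). On the log2 scale edgeR gave -8.40 for Hbb-y, and -6.63 when corrected for length and GC, a smaller fall than that interval spans. Hba-x had 328 and 0 counts and was at least 48.3-fold lower, and Hbb-bh1 had 35 and 0 and was at least 5.14-fold lower, against a floor of 3 counts per library. For each of the 3 genes both week 70 libraries lay below every fetal library.

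Alas2 and Slc4a1 also fell. Alas2 changed by -1.68 on the log2 scale (SE 0.178, edgeR adjusted p 7.47e-06), and by -1.90 when corrected. Slc4a1 changed by -1.52 (SE 0.418, edgeR adjusted p 0.00625), and by -2.33 when corrected. The difference between these falls was not tested. In contrast to the members, the 4 erythroid lists had more genes that rose with age than fell, 30 (54.5%) against 16 (29.1%) of 55 tested. Of all tested genes 82% were called, 44.4% as lower and the rest as higher. As a share of calls, not of tested genes, 45.8% were higher. The median of the lists was 0.48, beside -0.19 over all genes. Corrected for length and GC, 27 rose and 15 fell, with a median of 0.33 beside -0.03 over all genes. In the corrected fit 78.7% of all tested genes were called, 39% as lower and the rest as higher, and 50.4% of its calls were higher. On the log2 scale the changes were -3.51 for Trim10 and -3.48 for Tspo2. Tspo2 had 0 counts in 1 week 70 library and 5 in the other, so its size is imprecise, from -7.97 to -2.47 over 16 fits. Sptb, Dmtn and Car2, which neurons or glia also express, rose by 4.50, 2.99 and 5.04.

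Placed side by side, week 70 KO and day 15 WT brains differed in genotype as well as age, and no test was made. The adult globin share was 0.0359% and 0.0581% at week 70, against 0.0953 to 0.124% in WT day 15. Alas2 was at 9.11 and 14.4 CPM, against 14.9 to 24.3 CPM. KO day 15 brains therefore exceeded both other groups in each of the 4 adult globins and in Alas2, whereas for Hbb-y and Hba-x they stood between them.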

How the data were processed

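Polyadenylated RNA of whole brain was sequenced, per the labels' protocols. The authors deposited raw counts of reads per Ensembl gene for the 8 libraries. The submitters' processing notes name cutadapt, Trimmomatic, HISAT2, featureCounts, edgeR and the builds GRCm38 and GRCm39, without roles. Strand and multi-mapping settings are not given in the sources used here. The 9 members and the gene lists were chosen with earlier results of these data known, so no p is given for a list.

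Levels are CPM of all counts. Genes were tested across the whole table with edgeR 4.0.16 in R 4.3.3 (filterByExpr, TMM, two-sided quasi-likelihood F-test, Benjamini-Hochberg, threshold 0.05), with 6 libraries for genotype and 5 for age. TMM moved log2 fold changes by -0.16 for genotype and 0.53 for age against plain CPM. The corrected fit had offsets smoothed on transcript length and GC (mgcv 1.9.3, GENCODE release M 21, which held 97.3% of identifiers). Log2 values for likeness had a pseudocount of 0.5 CPM. Replicates differed by more than sampling noise in each group (chi-square per degree of freedom 3.2 to 21.5). Simulated counts served to check the scripts. The share of false calls there was above the threshold in each edgeR fit, so calls near it are less certain than their adjusted p, and with a simulated trend on transcript length most calls of the uncorrected fit were false. A list's named genes were the 4 with the smallest adjusted p for genotype, less any not reported here, and others were chosen after their values were seen. Alternatives were a fit without a filter, one on genes averaging 10 counts, DESeq2 1.42.0, upper-quartile and RLE scaling, the 8 libraries in 1 model, globins left out of library sizes, a replicate block, the length and GC offsets, and each library left out.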

Additional observations from a re-analysis of the deposited data

How the results depend on the processing

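For genotype, the calls and directions of the 4 adult globins, Alas2 and Hbb-y held under all alternatives run, and those of Hba-x under all but that without the libraries with Alb. Log2 fold changes ranged from 0.99 to 1.31 for Hba-a1, 1.13 to 1.66 for Hba-a2, 1.96 to 2.62 for Hbb-bs, 1.76 to 2.43 for Hbb-bt, 1.30 to 1.67 for Alas2 and -1.59 to -0.78 for Hbb-y. Slc4a1 turned above 0 with upper-quartile scaling (0.0212), with length and GC offsets (0.57, and 0.52 with the replicate block) and without WT replicate 3 (0.05), KO replicate 1 (0.0931) or the 3 libraries with Alb (0.0397), and with 1 library left out ranged from -0.47 to 0.0931. Hbb-bh1 turned below 0 without a filter (-0.0509), in DESeq2 (-0.0203), with length and GC offsets (-0.73, and -0.72 with the block) and without WT replicate 1 (-0.27) or KO replicate 2 (-0.23), with a range of -0.27 to 0.36 when 1 library was left out. The cause was not tested. Leaving out the 3 libraries with Alb sets WT replicates 1 and 2 against KO replicate 2 alone, assumed to vary like the WT, and shows little of stability. It called 7498 of 20657 genes in place of 11993 of 19147, and 6 members; 22 genes of the erythroid lists were called in place of 32. With TMM-scaled library sizes the KO day 15 share was 0.391% for adult globins and 0.00498% for Alas2 and Slc4a1 together, which were at 0.00168% at week 70. Per kilobase the embryonic share of alpha-type globin in WT was 1.54%.

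Replicate numbers did not pair the libraries: deviations of same-numbered fetal libraries correlated at -0.144, -0.169 and -0.146. With the replicate block 7 members and 11184 genes were called for genotype, 8 members and 14876 genes for age. Slc4a1 then lost its call for age (-1.17, edgeR adjusted p 0.054), and Hbb-bh1 did so with the block and the offsets together (-6.06, adjusted p 0.135). Genes with low counts, such as Hbb-bh1 and Slc4a1, are limited by depth.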
